A study of Arabidopsis thaliana with 9 samples.

Results

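The genes described are 33 nuclear genes of Arabidopsis thaliana that encode subunits of the photosystems and components of the photosynthetic electron transport chain. They were taken from the deposited count table by name, by a rule that uses no measured value. The list was chosen with earlier results of these data known, and the genes of the light-harvesting antenna were not included. The table holds 33323 genes, of which 16560 passed the filter on low counts, and all 33 genes were among these. By role they are 12 subunits of photosystem I, 5 genes of the oxygen-evolving complex of photosystem II, 5 other photosystem II genes, 3 carriers between the photosystems, 3 subunits of the chloroplast ATP synthase and 5 genes of the stromal end of the chain and of cyclic electron flow.

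RNA was compared between the T-DNA insertion lines hac1-2 (SALK_136314) and hac1-1 (SALK_080380) and wild type Col-0 (WT), with 3 libraries for each genotype. HAC1 encodes a histone acetyltransferase, and both lines and WT share the Col-0 background and received no treatment. Whole leaves at positions 12 to 14 were taken 49 days after sowing, under a cycle of 20 h light and 4 h dark, with light at 28 µmol photons m-2 s-1. The labels call the WT leaves senescent and those of both mutants non-senescent, so genotype and senescence state cannot be told apart. The design text speaks of 1 biological replicate, so the p-values measure the spread between these libraries, which may be technical. In whole leaves, fewer cells of a type and less RNA per cell cannot be told apart.

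In the thylakoid membrane, photosystem II draws electrons from water and passes them through plastoquinone and the cytochrome b6f complex to plastocyanin, and photosystem I passes them on to ferredoxin. Ferredoxin-NADP reductase then makes NADPH, and the ATP synthase uses the proton gradient to make ATP. The reaction centre cores are encoded in the plastid, while the genes here are nuclear. Some of them are among the most strongly expressed genes of green leaves, and as a class they are known to decline as leaves senesce. The count table holds 0 plastid or mitochondrial genes, so the plastid-encoded partners were not analysed here.

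Library totals ran from 5750097 to 9461600 counts, and 18S ribosomal RNA genes took 12.1 to 21.0% of them, with the highest share in hac1-1 replicate 2. HAC1 itself stood at 151, 133 and 122 CPM (counts per 1000000, with libraries scaled by TMM factors) in hac1-2, at 58.6, 72.7 and 64.1 CPM in hac1-1 and at 153, 167 and 147 CPM in WT. HAC1 was lower in hac1-1 than in WT by a log2 fold change of -1.26 ± 0.12 (SE; edgeR adjusted p = 1.2e-08), while hac1-2 overlapped WT (log2 fold change -0.20 ± 0.11; edgeR adjusted p = 0.31). Gene-level counts cannot tell an interrupted transcript from a whole one, so the value does not check the hac1-2 label, and hac1-2 stands below for the libraries labelled so. Summed over 4 mesophyll marker genes, the level was 8065 to 8894 CPM in hac1-2, 5577 to 6076 CPM in hac1-1 and 6726 to 8944 CPM in WT. RCA took the largest part of this sum, with 5824, 4192 and 6037 CPM in WT. In hac1-2 against WT, RCA was at -0.14 ± 0.12 (log2; edgeR adjusted p = 0.53) and the other markers were above 0. LHCB3 (0.46 ± 0.11; edgeR adjusted p = 0.0077) and CAB3 (0.39 ± 0.10; edgeR adjusted p = 0.01) were called higher. Of 6 root and flower markers, AP3 and RHD6 were at 0 in all 9 libraries and the list summed to at most 16.1 CPM in any library.

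The 2 mutant lines lay on opposite sides of WT. Together the 33 genes summed to 21707, 24204 and 22756 CPM in hac1-2, 17931, 16733 and 17263 CPM in hac1-1 and 21442, 18385 and 21068 CPM in WT. All hac1-2 libraries were above all WT libraries and all hac1-1 libraries were below them. The mean was 22889 ± 1254 CPM in hac1-2, 17309 ± 601 CPM in hac1-1 and 20298 ± 1668 CPM in WT (SD, n = 3 each), which gives ratios of 1.13 for hac1-2 over WT, 0.853 for hac1-1 over WT and 1.32 for hac1-2 over hac1-1. Without TMM scaling, the genes took 2.21 to 2.42% of the counts in hac1-2, 1.64 to 1.84% in hac1-1 and 1.81 to 2.06% in WT, so that hac1-1 replicate 1 then reached above WT replicate 2. By mean CPM, 30 of the 33 genes were in the order hac1-1, WT, hac1-2 from low to high, and in the other 3 hac1-2 was between hac1-1 and WT.

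**Figure D1:**
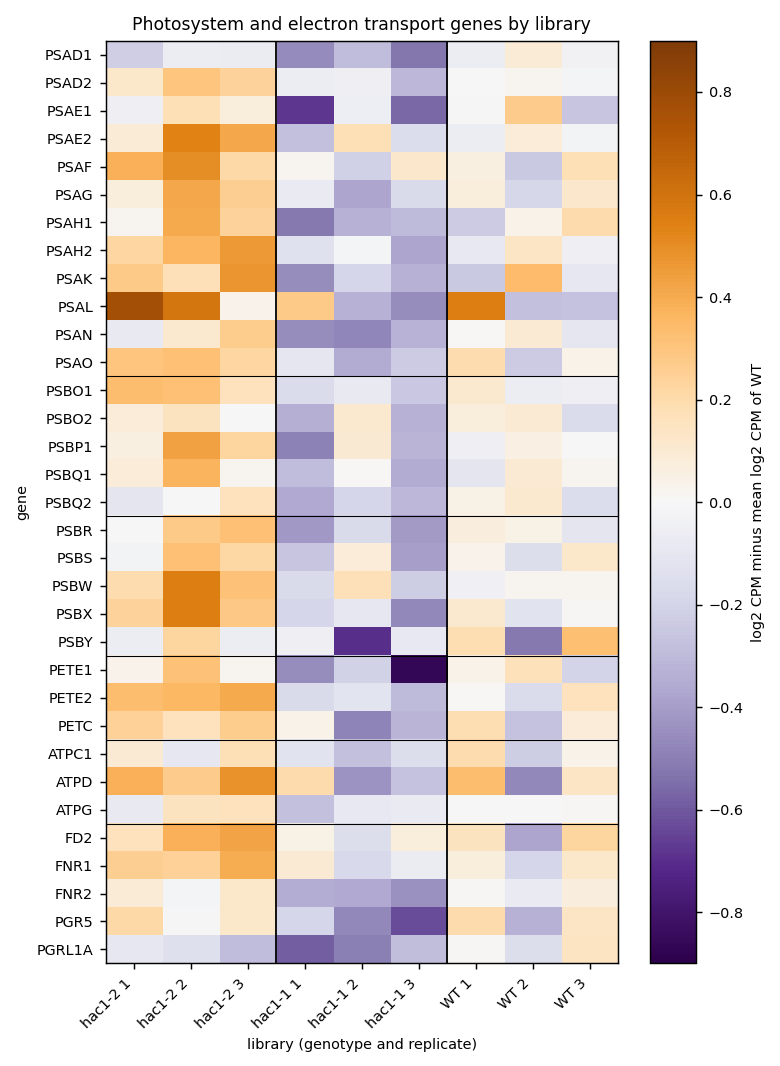
Level of each of the 33 genes (rows, in role order and separated by lines between roles) in each library (columns), as log2 CPM minus the mean log2 CPM of the 3 WT libraries; orange is above and purple below the WT mean. Most cells are orange in hac1-2 and purple in hac1-1, and PSAL and PSBY differ most between libraries of 1 genotype.

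In hac1-2 against WT, 4 of the 33 genes were called higher (12.1%), and none was called lower under the test or any alternative. Across all genes tested, 2.85% were called higher, 7.44% lower and 10.3% in either direction. Among the 6877 genes whose mean level reached 21.5 CPM, that of the lowest of the 33 genes, 4.35% were called higher and 10% lower. The 4 genes were PSAF, PSBW, PSBX and PETE2. The median log2 fold change of the 33 genes was 0.22, with a range from -0.18 to 0.44, against a median of 0.02 over all genes tested, and 30 of 33 values were above 0, against 52.3% of all genes. The 3 libraries of hac1-2 were all above the 3 of WT for 11 of the 33 genes (12.5% of all genes tested) and all below for 1 gene, PSAD1 (15.5% of all genes tested). With all libraries, 15 genes had an unadjusted p under 0.05 and DESeq2 called 5 higher. Without hac1-2 replicate 2 none of the 33 genes was called, and without hac1-2 replicate 3 or without WT replicate 1 only 1 gene was called. Each of the 4 calls was lost without hac1-2 replicate 2, without WT replicate 1 and without WT replicate 2. PSBW, PSBX and PETE2 were also lost without hac1-2 replicate 3, PSBW and PSBX without WT replicate 3, PSAF and PETE2 without hac1-2 replicate 1, and PSAF without hac1-1 replicate 3.

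In hac1-1 against WT, 5 genes were called lower (15.2%) and none higher, by edgeR or DESeq2, and 12 had an unadjusted p under 0.05. Among all genes tested, 9.12% were called lower, 3.51% higher and 12.6% in either direction, and among the 6877 genes whose mean level reached 21.5 CPM, that of the lowest of the 33 genes, 12.4% were called lower. The share of the 33 genes called lower was thus close to that of other genes of such a level. The genes called were PSAD1, PSAN, PSBR, FNR2 and PGRL1A. All 33 log2 fold changes were below 0, with a median of -0.21 and a range from -0.48 to -0.03, while the median over all genes was 0.02. For 11 genes the 3 hac1-1 libraries were all below the 3 WT libraries (15.7% of all genes tested), and for none were they all above (11.9%). With library size as the sole scaling 31 of the 33 values were below 0, and without hac1-1 replicate 2 the number of genes called was 10, and without hac1-1 replicate 3 it was 3. The PSBR call was lost without WT replicate 1 or 2 or hac1-1 replicate 1 or 3, the FNR2 call without WT replicate 3 or hac1-1 replicate 3, and the PGRL1A call without WT replicate 3 or hac1-1 replicate 1. PSAD1 and PSAN were called without any single library, and lost on the FPKM scale.

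The largest differences lay between the 2 mutant lines. In hac1-2 against hac1-1, the test of whether the 2 effects differ, 13 genes were called higher (39.4%) and none lower, while 1.86% of all genes tested were called higher, 0.978% lower and 2.84% in either direction. Among the 6877 genes of at least the level of the lowest of the 33, 3.10% were called higher. All 33 log2 fold changes were above 0 under the test and under each of the 20 alternatives. Their median was 0.45 and their range 0.23 to 0.64, against a median of -0.01 over all genes. The 3 hac1-2 libraries were all above the 3 hac1-1 libraries for 25 genes (9.85% of all genes tested) and all below for none (8.36%), and 32 genes had an unadjusted p under 0.05. DESeq2 called 18 genes higher, adding PSAD1, PSAD2, PETE1, PETC and FNR1. PSBX and PETE2 were called under all 20 alternatives. PSAO and PSBR were called with any single library left out, and lost on each FPKM scale. Among the others, the call was lost without hac1-2 replicate 3 for PSAG, PSAH2, PSAK, PSAN, PSBP1, PSBW and FNR2, without hac1-2 replicate 2 for PSAG, PSAH1, PSAH2, PSBO1, PSBP1 and PSBW, and without hac1-1 replicate 3 for PSAG, PSAH2, PSBO1, PSBP1, PSBW and FNR2. In each of these settings 7 genes were called, and 21 were called without WT replicate 2. PSAG was also lost without hac1-1 replicate 2, PSBO1 without hac1-2 replicate 1, PSAH1 without hac1-1 replicate 1, and PSBP1 and PSBW without hac1-1 replicate 1 or WT replicate 1 or 3. On each FPKM scale PSAG, PSBP1 and PSBW were lost as well, and PSAK was lost with a pseudocount of 0.1. The 3 comparisons share libraries, so their values are not independent of each other.

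**Figure D2:**
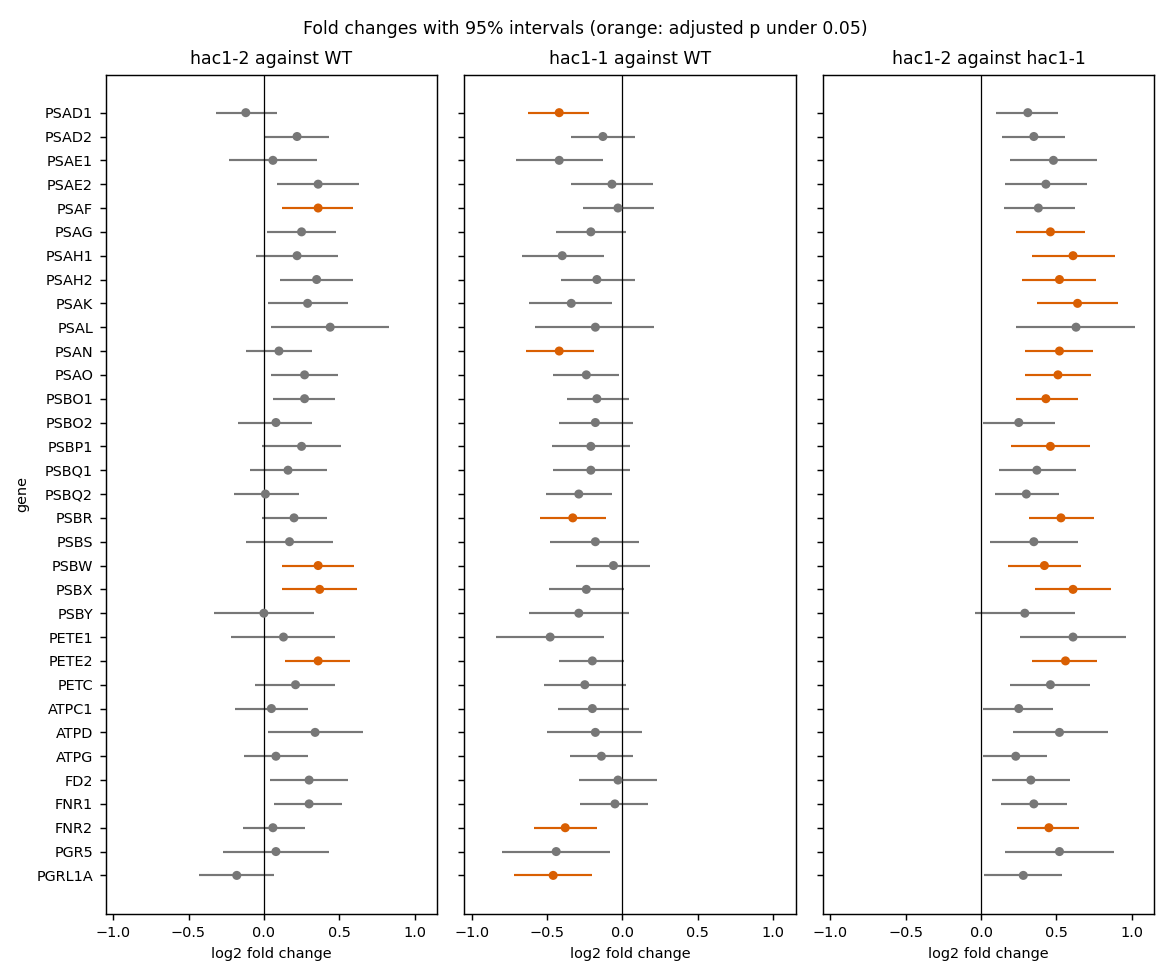
Log2 fold change of each gene with its 95% interval (edgeR) in hac1-2 against WT, hac1-1 against WT and hac1-2 against hac1-1; genes with an adjusted p under 0.05 are orange. All 33 points are left of 0 in the middle panel and right of 0 in the right panel.

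Positive values in hac1-2 and negative values in hac1-1 largely cancelled when the 2 mutants were averaged. For the mean of hac1-2 and hac1-1 against WT, 2 genes were called lower, PSAD1 (log2 fold change -0.27 ± 0.09 SE; edgeR adjusted p = 0.034) and PGRL1A (-0.32 ± 0.11; edgeR adjusted p = 0.043), and none was called higher. Over all genes tested, 10.2% were called lower, 3.74% higher and 13.9% in either direction. The median of the 33 genes was -0.02, with 15 values above 0 and 18 below, and 21 above and 12 below with library size as the sole scaling. The PSAD1 call was lost in 11 and the PGRL1A call in 12 of 19 alternatives. Both were lost without WT replicate 1, WT replicate 3, hac1-1 replicate 1 or hac1-2 replicate 1, PSAD1 also without WT replicate 2 or hac1-1 replicate 3, and PGRL1A also without hac1-1 replicate 2, hac1-2 replicate 2 or hac1-2 replicate 3.

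In hac1-2 against hac1-1, 6 of the 12 photosystem I genes were called higher, with a median log2 fold change of 0.49. In hac1-2 against WT 1 of 12 was called higher, and in hac1-1 against WT 2 of 12 were called lower. PSAK (AT1G30380), which with PSAG (AT1G55670) helps bind the antenna of photosystem I, had 133, 124 and 153 CPM in hac1-2, 80.3, 96.2 and 87.1 CPM in hac1-1 and 92.7, 139 and 103 CPM in WT. Every hac1-2 library was above every hac1-1 library, and WT replicate 2 fell within the range of hac1-2. The log2 fold change of 0.64 ± 0.13 in hac1-2 against hac1-1 was the largest of the 33 (SE; edgeR adjusted p = 0.0063). PSAG had 1350, 1707 and 1527 CPM in hac1-2, 1217, 986 and 1139 CPM in hac1-1 and 1346, 1126 and 1387 CPM in WT. Its 2 mutants did not overlap, and it was 0.46 ± 0.11 higher on the log2 scale in hac1-2 (edgeR adjusted p = 0.023).

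PSAH, PSAL (AT4G12800) and PSAO (AT1G08380) form the side of photosystem I where mobile antenna docks. PSAH1 (AT3G16140) had 57.2, 75.0 and 66.5 CPM in hac1-2, 39.6, 44.8 and 45.9 CPM in hac1-1 and 48.0, 58.1 and 64.9 CPM in WT. PSAH2 (AT1G52230) had 106, 117 and 125 CPM in hac1-2, 83.2, 89.6 and 70.1 CPM in hac1-1 and 85.4, 100 and 87.9 CPM in WT. Neither gene overlapped between the mutants, and hac1-2 was also above WT in every library for PSAH2. Against hac1-1, hac1-2 was higher by 0.61 ± 0.13 for PSAH1 (log2; edgeR adjusted p = 0.0098) and by 0.52 ± 0.12 for PSAH2 (edgeR adjusted p = 0.013). PSAO had 1599, 1626 and 1518 CPM in hac1-2, 1210, 1017 and 1104 CPM in hac1-1 and 1489, 1108 and 1337 CPM in WT. All hac1-2 libraries were above the rest, and the log2 fold change over hac1-1 was 0.51 ± 0.11 (edgeR adjusted p = 0.0082). PSAL had 641, 564 and 384 CPM in hac1-2, 456, 298 and 275 CPM in hac1-1 and 550, 310 and 311 CPM in WT. The first replicate was the highest library of each genotype, the groups overlapped, and no difference in PSAL was called (0.63 ± 0.19 in hac1-2 against hac1-1; edgeR adjusted p = 0.075).

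PSAF (AT1G31330) and PSAN (AT5G64040) help plastocyanin dock at the lumenal side of photosystem I. PSAF had 2294, 2474 and 2035 CPM in hac1-2, 1788, 1519 and 1906 CPM in hac1-1 and 1830, 1490 and 1995 CPM in WT. Only hac1-2 stood apart, by 0.36 ± 0.11 over WT (log2; edgeR adjusted p = 0.046), a call that was lost in 9 of 20 alternatives. PSAN had 228, 260 and 289 CPM in hac1-2, 176, 174 and 192 CPM in hac1-1 and 242, 258 and 225 CPM in WT. Here hac1-1 stood apart, below WT by a log2 fold change of -0.42 ± 0.11 (edgeR adjusted p = 0.0098), and hac1-2 was above hac1-1 by 0.52 ± 0.11 (edgeR adjusted p = 0.0076). PSAD1 (AT4G02770), at the stromal side where ferredoxin docks, had 1493, 1672 and 1667 CPM in hac1-2, 1270, 1427 and 1214 CPM in hac1-1 and 1677, 1852 and 1707 CPM in WT. It was highest in WT, below WT in all 6 mutant libraries, and called lower in hac1-1 (-0.42 ± 0.10; edgeR adjusted p = 0.0045) but not in hac1-2 (-0.12 ± 0.10; edgeR adjusted p = 0.56). The other ferredoxin-side genes, PSAD2 (AT1G03130), PSAE1 (AT4G28750) and PSAE2 (AT2G20260), were not called by edgeR in any comparison, with log2 fold changes of 0.35 to 0.48 in hac1-2 against hac1-1.

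Of the oxygen-evolving complex, which holds the manganese cluster where water is split, 2 of 5 genes were called higher in hac1-2 than in hac1-1 and none was called against WT in either mutant (edgeR; 1 gene in each had an unadjusted p under 0.05, and DESeq2 called 1 in each). PSBO1 (AT5G66570), the manganese-stabilizing protein, had 1128, 1116 and 998 CPM in hac1-2, 801, 846 and 752 CPM in hac1-1 and 965, 858 and 869 CPM in WT. The 3 genotypes did not overlap, and hac1-2 was above hac1-1 by 0.43 ± 0.10 (log2; edgeR adjusted p = 0.014). PSBP1 (AT1G06680), which helps retain calcium and chloride, had 400, 518 and 451 CPM in hac1-2, 274, 413 and 308 CPM in hac1-1 and 373, 398 and 383 CPM in WT. Its mutants overlapped at hac1-1 replicate 2, and the call (0.46 ± 0.13; edgeR adjusted p = 0.044) was lost in 10 of 20 alternatives. PSBQ2 (AT4G05180) had 878, 942 and 1053 CPM in hac1-2, 735, 826 and 764 CPM in hac1-1 and 977, 1021 and 848 CPM in WT, and its paralogue PSBQ1 (AT4G21280) had 93.2, 114 and 89.4 CPM in hac1-2, 71.9, 88.5 and 69.1 CPM in hac1-1 and 81.6, 94.3 and 89.2 CPM in WT. For both, every hac1-2 library was above every hac1-1 library without an edgeR call. PSBO2 (AT3G50820) was not called and its mutants overlapped (0.25 ± 0.12; edgeR adjusted p = 0.32).

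Among the other photosystem II genes, 3 of 5 were called higher in hac1-2 than in hac1-1. PSBR (AT1G79040), which helps anchor PSBP, had 2393, 2910 and 3002 CPM in hac1-2, 1795, 2130 and 1808 CPM in hac1-1 and 2509, 2476 and 2224 CPM in WT. The hac1-1 libraries lay below all others, by -0.33 ± 0.11 against WT (log2; edgeR adjusted p = 0.040), a call lost in 9 of 20 alternatives, and hac1-2 was above hac1-1 by 0.53 ± 0.11 (edgeR adjusted p = 0.0045). PSBX (AT2G06520), a small membrane subunit, had 115, 143 and 119 CPM in hac1-2, 85.4, 91.3 and 70.6 CPM in hac1-1 and 105, 89.7 and 98.3 CPM in WT. The hac1-2 libraries were above all others, with log2 fold changes of 0.37 ± 0.12 against WT (edgeR adjusted p = 0.046) and 0.61 ± 0.12 against hac1-1 (edgeR adjusted p = 0.0044). PSBW (AT2G30570), which stabilizes the association of photosystem II with its antenna, had 247, 316 and 268 CPM in hac1-2, 192, 243 and 184 CPM in hac1-1 and 210, 219 and 219 CPM in WT. Again hac1-2 stood above both (0.36 ± 0.12 against WT, edgeR adjusted p = 0.049; 0.42 ± 0.12 against hac1-1, edgeR adjusted p = 0.046), and the second call was lost in 10 of 20 alternatives.

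PSBS (AT1G44575), needed for the rapid dissipation of excess light as heat, and PSBY (AT1G67740) were not called. PSBS had 43.8, 55.5 and 51.7 CPM in hac1-2, 37.2, 47.2 and 33.8 CPM in hac1-1 and 45.5, 40.1 and 48.4 CPM in WT, and the groups overlapped. PSBY had 3052, 3732 and 3051 CPM in hac1-2, 3078, 1960 and 2999 CPM in hac1-1 and 3627, 2222 and 3995 CPM in WT. Replicate 2 was low in hac1-1 and WT but high in hac1-2, and the groups overlapped.

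PETE2 (AT1G20340), the main plastocyanin gene here by level, was called in both comparisons of hac1-2. It had 607, 615 and 638 CPM in hac1-2, 427, 445 and 391 CPM in hac1-1 and 484, 429 and 539 CPM in WT. The hac1-2 libraries were above all others, by 0.36 ± 0.10 against WT (log2; edgeR adjusted p = 0.027) and 0.56 ± 0.11 against hac1-1 (edgeR adjusted p = 0.0028). Its paralogue PETE1 (AT1G76100) was far lower, with 26.4, 32.1 and 26.2 CPM in hac1-2, 18.9, 22.4 and 14.2 CPM in hac1-1 and 26.5, 29.0 and 22.5 CPM in WT. All hac1-1 libraries were below the rest, without an edgeR call (-0.48 ± 0.17 against WT; edgeR adjusted p = 0.071). PETC (AT4G03280), the Rieske protein of cytochrome b6f, was 0.46 ± 0.13 higher in hac1-2 than in hac1-1 on the log2 scale (edgeR adjusted p = 0.053). In that comparison DESeq2, unlike edgeR, called both PETC (adjusted p = 0.047) and PETE1 (adjusted p = 0.042) higher.

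None of the 3 ATP synthase genes was called in any comparison, by edgeR or by DESeq2. ATPG (AT4G32260), a stator subunit, had 656, 770 and 775 CPM in hac1-2, 572, 652 and 659 CPM in hac1-1 and 691, 692 and 697 CPM in WT. ATPC1 (AT4G04640), the gamma subunit of the rotor, had 185, 162 and 196 CPM in hac1-2, 159, 143 and 156 CPM in hac1-1 and 198, 148 and 178 CPM in WT. Differences between mutants in these 2 genes were 0.23 and 0.25 on the log2 scale, the smallest values with that of PSBO2, and 0.52 ± 0.15 for ATPD (AT4G09650) (edgeR adjusted p = 0.063). All 3 had an unadjusted p under 0.05 in hac1-2 against hac1-1, as did 1 in hac1-2 against WT and 0 in hac1-1 against WT.

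At the stromal end, FNR2 (AT1G20020), a ferredoxin-NADP reductase of leaves, had 283, 264 and 291 CPM in hac1-2, 210, 208 and 197 CPM in hac1-1 and 269, 253 and 279 CPM in WT. Only hac1-1 stood apart, by -0.38 ± 0.10 against WT (log2; edgeR adjusted p = 0.011), and hac1-2 exceeded hac1-1 by 0.45 ± 0.10 (edgeR adjusted p = 0.013). FD2 (AT1G60950), the major leaf ferredoxin, had 527, 616 and 635 CPM in hac1-2, 488, 425 and 499 CPM in hac1-1 and 526, 364 and 553 CPM in WT, with no call.

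PGRL1A (AT4G22890) and PGR5 (AT2G05620) act in cyclic flow, which returns electrons from ferredoxin to plastoquinone. PGRL1A had 60.7, 59.0 and 53.0 CPM in hac1-2, 43.2, 45.9 and 53.3 CPM in hac1-1 and 65.1, 58.4 and 71.5 CPM in WT. The hac1-1 libraries were below WT by -0.46 ± 0.13 (log2; edgeR adjusted p = 0.013), and PGRL1A and PSAD1 were the genes lowest in hac1-2 relative to WT, at -0.18 and -0.12 without a call. PGR5 had 26.3, 22.6 and 24.8 CPM in hac1-2, 19.9, 16.4 and 14.7 CPM in hac1-1 and 26.1, 18 and 25 CPM in WT, and was not called (-0.44 ± 0.18 in hac1-1 against WT; edgeR adjusted p = 0.11).

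**Figure D3:**
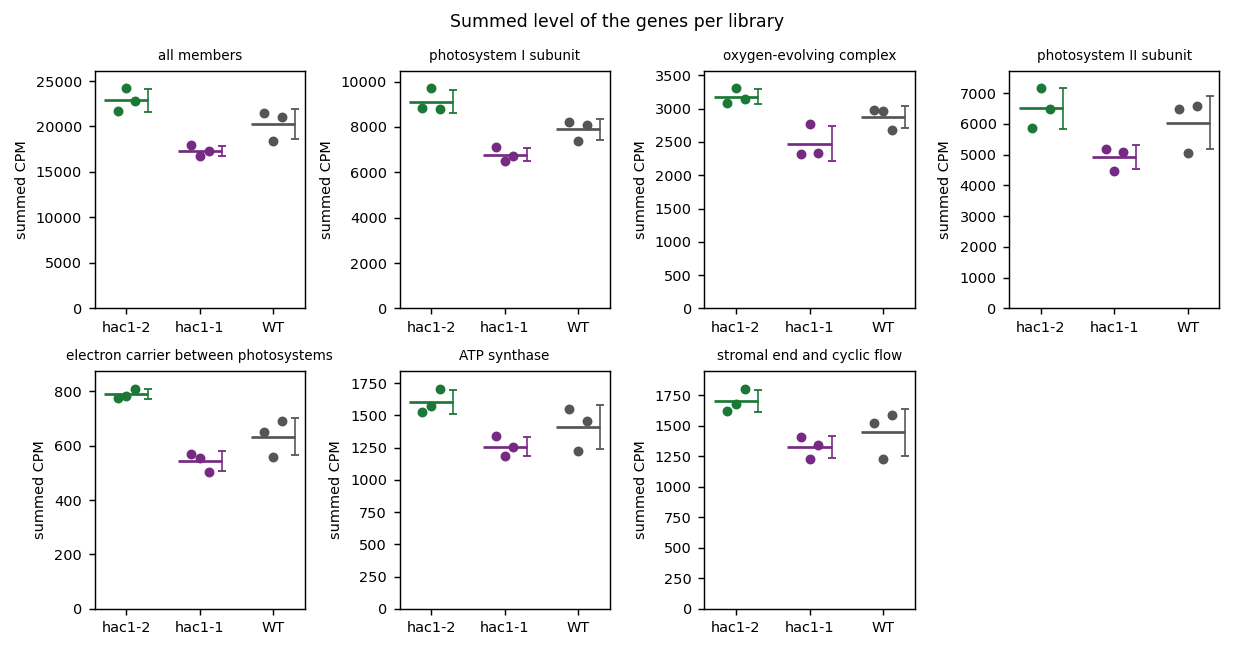
Summed CPM of all 33 genes and of each role, per library (points, replicates 1 to 3 from left to right), with the mean (line) and SD (bar) of 3 libraries for hac1-2, hac1-1 and WT. The hac1-2 mean is highest and the hac1-1 mean lowest in every panel, and WT replicate 2 is below the other WT libraries in all panels but that of the oxygen-evolving complex.

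The shares of the 6 roles in the summed level were compared without a test. Photosystem I genes made up 44.1 ± 1.18% of the summed FPKM of the 33 genes in hac1-2, 43.6 ± 0.535% in hac1-1 and 43.3 ± 0.835% in WT (SD, n = 3 each). The other photosystem II genes made up 29.5 ± 1.32% in hac1-2, 29.3 ± 0.788% in hac1-1 and 30.6 ± 1.28% in WT. Carriers between the photosystems came to 3.31 ± 0.185% in hac1-2, 3.02 ± 0.194% in hac1-1 and 2.99 ± 0.150% in WT. The oxygen-evolving complex came to 11 ± 0.241% in hac1-2, 11.5 ± 1.47% in hac1-1 and 11.4 ± 1.3% in WT. ATP synthase genes came to 6.15 ± 0.435% in hac1-2, 6.39 ± 0.230% in hac1-1 and 6.06 ± 0.319% in WT. Genes of the stromal end and cyclic flow came to 5.90 ± 0.357% in hac1-2, 6.14 ± 0.279% in hac1-1 and 5.61 ± 0.479% in WT. FPKM values are the authors', per length, and whether the libraries cover whole transcripts or 3′ ends is not given in the sources used here, which limits comparisons between genes. On that scale 6 of the 33 genes were among the 30 genes with the highest mean level in these leaves. PSBR was the highest, at a mean of 3276 FPKM over the 9 libraries and rank 8 of 18168 genes, and PSBY followed at 2828 FPKM. PSAF led photosystem I with 2025 FPKM, and the lowest levels were 28.0 FPKM for PGR5, 29.3 FPKM for PSBS and 30.9 FPKM for PETE1.

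Gene length moved with the difference between the mutants. Across the 33 genes, the log2 fold change of hac1-2 against hac1-1 correlated with log2 gene length, as implied by the authors' FPKM, at r = -0.58 and rho = -0.57 (n = 33 genes from the same libraries). Across the 6877 genes of similar or higher level, the same correlation was r = -0.29. The difference was larger for shorter genes, and the part of length in the values of the 33 genes was not tested.

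In 7 cases the 33 genes include both members of a paralogue pair, and the share of counts within a pair does not depend on how libraries are scaled. PSAD1 made up 67.4, 67.2 and 68.1% of the PSAD1 and PSAD2 counts in hac1-2, 66.7, 69.0 and 69.4% in hac1-1 and 71.7, 73.3 and 72.3% in WT. All 6 mutant libraries were below all 3 WT libraries, with a difference of -4.49 percentage points between the 6 mutant and the 3 WT libraries (exact permutation test, two-sided p = 0.0238, the smallest that 6 against 3 allows; 0.0833 after adjustment over the 7 pairs). FNR1 (AT5G66190) made up 72.0, 73.1 and 73.4% of the FNR1 and FNR2 counts in hac1-2, 75.6, 72.1 and 74.6% in hac1-1 and 70.3, 67.8 and 70.3% in WT. Here all 6 mutant libraries were above WT, by 3.98 percentage points (exact permutation test, two-sided p = 0.0238, adjusted 0.0833). In these 2 pairs both mutants lay on the same side of WT, but the adjusted p did not reach 0.05, and with 3 against 3 libraries no single comparison could go below 0.1.

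PSAE1 averaged 63.0 ± 2.0% of its pair in hac1-2, 61.9 ± 1.6% in hac1-1 and 67.3 ± 3.3% in WT (SD, n = 3 each), with WT replicate 3 inside the mutant range. PSBO1 averaged 64.9 ± 0.79% of its pair in hac1-2, 62.1 ± 3.2% in hac1-1 and 61.8 ± 2.3% in WT, and hac1-2 did not overlap WT (exact permutation test, two-sided p = 0.1, adjusted 0.233). For PSAH1, PSBQ1 and PETE1 every group overlapped. The paired transcripts are far from identical, at 73.0 to 87.4% over their aligned parts, and none of the 33 transcripts had a near-identical copy (95% identity or more along 50% or more of the transcript).

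**Figure D4:**
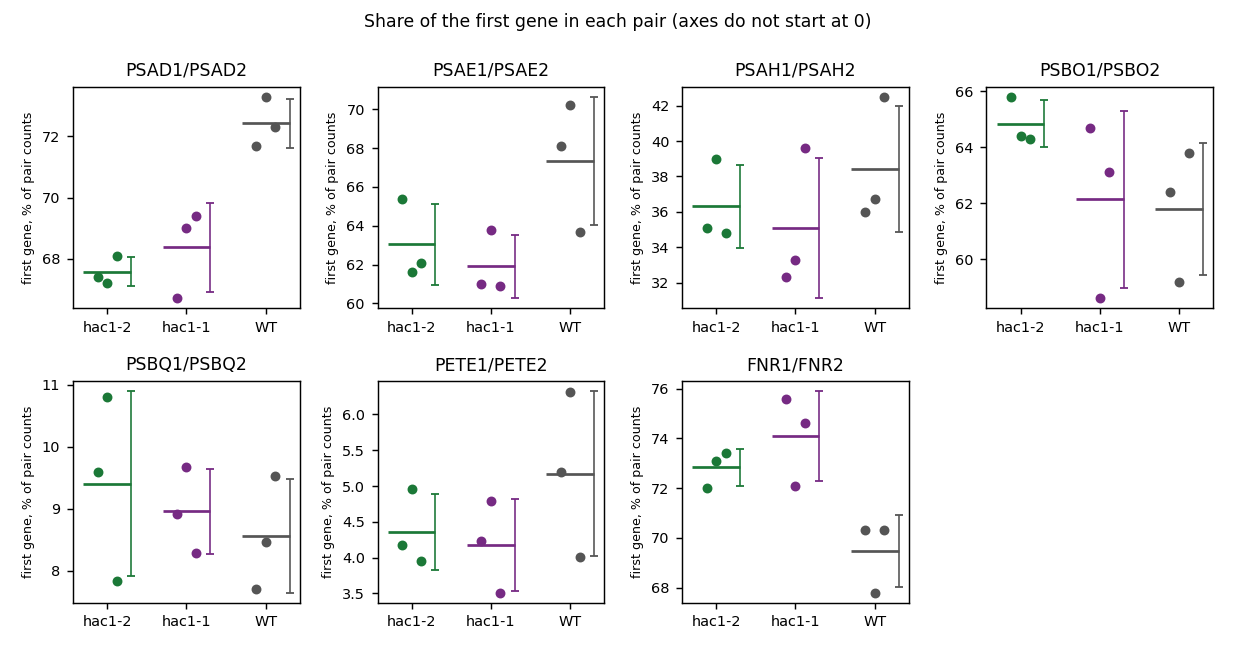
Share of the first-named gene in the counts of each of 7 paralogue pairs, per library (points), with the mean (line) and SD (bar) of 3 libraries for hac1-2, hac1-1 and WT; the axes do not start at 0. In the PSAD and FNR panels the 6 mutant libraries lie on 1 side of the 3 WT libraries.

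Libraries of different genotypes shared patterns within the chain. The deviations of hac1-1 replicate 2 and WT replicate 2 from their group means correlated at r = 0.81 across the 33 genes, and those of hac1-1 replicate 1 and WT replicate 1 at r = 0.79, as a description over genes of the same libraries. In hac1-1 replicate 2, PSBY was 0.42 and ATPD 0.27 below the mean of the genotype on the log2 scale, and PSAE1 was 0.38 above it. In WT replicate 2, PSBY was 0.52 and ATPD 0.47 below the WT mean, while PSAK was 0.34 and PSAE1 0.27 above. Pairs with a hac1-2 library correlated at r = 0.59 between hac1-2 replicate 1 and hac1-1 replicate 1, 0.63 between hac1-2 replicate 1 and WT replicate 1, 0.34 between hac1-2 replicate 2 and hac1-1 replicate 2, and 0.17 between hac1-2 replicate 2 and WT replicate 2. The libraries numbered 3 correlated at 0.25 for hac1-2 and hac1-1, 0.14 for hac1-2 and WT, and 0.56 for hac1-1 and WT. Libraries with different numbers lay between -0.74 and 0.24.

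**Figure D5:**
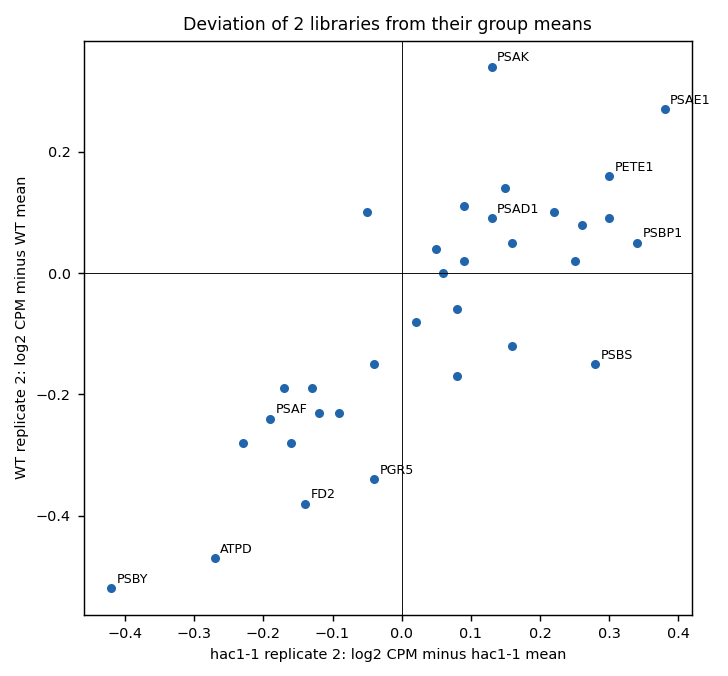
Deviation of hac1-1 replicate 2 (x axis) and of WT replicate 2 (y axis) from the mean log2 CPM of their genotypes, with 1 point for each of the 33 genes. The points run from PSBY, at -0.42 in hac1-1 and -0.52 in WT, to PSAE1, at 0.38 in hac1-1 and 0.27 in WT.

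Promoters of the 33 genes were searched for 4 motifs known from photosynthesis genes, on both strands, in the window from 250 bases before to 50 bases after the annotated start. The I-box core GATAAG was found in 18 of 33 windows (54.5%), against 14.6% of the 27443 windows of all protein-coding genes. The G-box CACGTG was found in 11 (33.3%), against 7.68%, and at least 1 of these motifs in 25 (75.8%), against 21.0%. CCAATC was found in 7 (21.2%), against 12.3% of all windows, and TATAAA in 17 (51.5%), against 52.1%. Of the windows of 21 antenna genes, 28.6% held the I-box, 23.8% the G-box, 52.4% CCAATC and 42.9% TATAAA. No matches of different motifs overlapped in the 33 windows. The 250 bases before the start are shown for 4 genes, picked after their values were seen: PSAK with the largest difference between the mutants, PSBX and PETE2 called in hac1-2 against hac1-1 under every alternative, and PSAH2 with 2 G-boxes. They lie at chr1:19454548-19454797 (plus strand, PSAH2), chr1:10721933-10722182 (plus strand, PSAK), chr2:2588449-2588698 (minus strand, PSBX) and chr1:7043393-7043642 (minus strand, PETE2) of TAIR10.1 (RefSeq), each upstream of the first exon of its gene and written 5′ to 3′ on the strand of the gene. Capitals mark matches to any of the 4 motifs or to their reverse complements.
PSAH2: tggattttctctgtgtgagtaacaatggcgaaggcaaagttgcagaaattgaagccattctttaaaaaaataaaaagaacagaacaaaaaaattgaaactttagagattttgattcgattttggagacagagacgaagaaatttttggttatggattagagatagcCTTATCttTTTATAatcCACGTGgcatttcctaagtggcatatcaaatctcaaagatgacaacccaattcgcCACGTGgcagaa
PSAK: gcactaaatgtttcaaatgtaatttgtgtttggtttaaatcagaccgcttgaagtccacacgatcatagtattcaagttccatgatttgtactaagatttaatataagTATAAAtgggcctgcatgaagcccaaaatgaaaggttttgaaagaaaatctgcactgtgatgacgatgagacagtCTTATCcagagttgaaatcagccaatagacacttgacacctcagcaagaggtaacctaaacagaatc
PSBX: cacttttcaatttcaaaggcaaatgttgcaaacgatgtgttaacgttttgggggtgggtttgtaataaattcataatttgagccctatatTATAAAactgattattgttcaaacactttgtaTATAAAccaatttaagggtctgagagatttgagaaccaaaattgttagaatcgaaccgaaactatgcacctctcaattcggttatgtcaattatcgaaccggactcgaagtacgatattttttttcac
PETE2: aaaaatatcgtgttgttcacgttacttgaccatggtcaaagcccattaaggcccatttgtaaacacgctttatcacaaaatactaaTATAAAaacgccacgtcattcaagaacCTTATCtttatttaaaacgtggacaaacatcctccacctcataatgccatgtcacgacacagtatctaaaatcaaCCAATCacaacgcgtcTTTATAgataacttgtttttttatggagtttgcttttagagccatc
PSAH2 holds an I-box, a TATAAA match and 2 G-boxes in this stretch. PSAK holds an I-box and a TATAAA match, PETE2 an I-box, a CCAATC and 2 TATAAA matches, and PSBX 2 TATAAA matches and none of the other 3 motifs. A match describes letters and is not a shown binding site.

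Related genes outside the 33 were followed by lists. Of 14 other photosystem, cytochrome b6f, ferredoxin and ATP synthase genes, 1 was called higher in hac1-2 than in WT (PSBTN, 0.52 ± 0.12 on the log2 scale; edgeR adjusted p = 0.0039) and 1 lower in hac1-1 (FD1, the minor leaf ferredoxin, -0.75 ± 0.18; edgeR adjusted p = 0.0040). Of 17 nuclear genes of the NDH complex, which carries a second route of cyclic flow, none was called in hac1-2 against WT by edgeR or DESeq2 (2 at an unadjusted p under 0.05). In hac1-1, 5 were called lower by edgeR, with NDHM at -1.23 ± 0.21 (edgeR adjusted p = 0.00016). DESeq2 called 3 of them, without PNSB1 (DESeq2 adjusted p = 0.054) and PNSL1 (DESeq2 adjusted p = 0.053). The medians of the NDH list were 0.09 in hac1-2 against WT, -0.47 in hac1-1 against WT and 0.44 in hac1-2 against hac1-1. Of 21 assembly and repair factors, 1 was called lower in hac1-1, CYP38, and none was called in hac1-2 against WT by edgeR or DESeq2 (5 at an unadjusted p under 0.05). Thylakoid regulators held 2 of 13 genes called higher in hac1-2, CAS and CURT1A, and none called in hac1-1 by edgeR or DESeq2 (1 at an unadjusted p under 0.05).

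Antenna genes were called higher in hac1-2 than in WT in 8 of 20 cases, and lower in hac1-1 in 4, with medians of 0.31 and -0.13. Between the mutants, 14 of the 20 antenna genes were called higher in hac1-2, with 18 values above 0 and 2 below. Their median was 0.45, as for the 33 genes, of which 13 were called. The difference between the mutants was thus not particular to the 33 genes. Near-identical antenna genes share reads, so single members of that list are uncertain. Of 21 Calvin cycle genes, 2 were called higher in hac1-2 (1 by DESeq2) and 11 lower in hac1-1, with medians of -0.05 and -0.40. In hac1-2 against hac1-1, all 21 Calvin cycle values were above 0, with a median of 0.35, and 8 genes were called higher. Among 11 regulators of photosynthesis genes, CGA1, a GATA factor known to promote chloroplast gene expression, was the sole one called against WT in both mutants. It had 5.78, 6.88 and 4.98 CPM in hac1-2, 5.32, 8.44 and 8.66 CPM in hac1-1 and 15.8, 17.5 and 18.9 CPM in WT. Both mutants were below WT in every library, by -1.55 ± 0.23 in hac1-2 (log2; edgeR adjusted p = 2.9e-05) and -1.23 ± 0.23 in hac1-1 (edgeR adjusted p = 0.00041). GLK2 and SIG1 were called lower in hac1-1 alone, at -0.40 ± 0.11 (edgeR adjusted p = 0.011) and -0.37 ± 0.11 (edgeR adjusted p = 0.017), while edgeR called neither gene between the mutants (GLK2, 0.30 ± 0.10, adjusted p = 0.14; SIG1, 0.37 ± 0.11, adjusted p = 0.053). DESeq2 called SIG1 higher in hac1-2 than in hac1-1 (adjusted p = 0.016).

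Summed markers of other leaf cell types differed between genotypes as well, though most single markers were not called. The 7 phloem markers summed to 454 to 583 CPM in hac1-2, 472 to 565 CPM in hac1-1 and 724 to 823 CPM in WT, and the 6 guard cell markers to 31.5 to 35.8 CPM in hac1-2, 40.1 to 44.8 CPM in hac1-1 and 47.3 to 57.7 CPM in WT. The 6 epidermis markers summed to 454 to 517 CPM in hac1-2, 446 to 494 CPM in hac1-1 and 407 to 426 CPM in WT. AHA3 had the most counts of the phloem list and CER6 of the epidermis list. Against WT, 3 of 7 phloem markers were called lower in hac1-2 and 2 in hac1-1. Of 5 guard cell markers tested, 2 were called lower in hac1-2 and none in hac1-1 (1 at an unadjusted p under 0.05). Of 5 epidermis markers tested, LTP1 alone was called, higher in both mutants. All 4 mesophyll markers, which are antenna and Calvin cycle genes themselves, were called higher in hac1-2 than in hac1-1, as were 13 of the 33 genes here. The part of cell type composition in these differences was not tested.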

How the data were processed

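RNA sequencing of 9 libraries was analysed, 3 for each genotype. The count table deposited by the authors lists raw reads for 33323 genes, and a second deposited table gives FPKM (reads scaled to gene length and library total) for 18168 genes. The build was TAIR10 per the submitters' processing notes, and the aligner, counting program and counting strand are not given in the sources used here. Per the labels, the libraries were made by breath adapter directional sequencing.

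Counts were tested in R 4.3.3 with edgeR 4.0.16. Low genes were removed with filterByExpr (minimum count 10), which left 16560 genes. Scaling used TMM factors, and all 9 libraries shared the dispersion estimate (biological coefficient of variation 13.7%). Quasi-likelihood tests gave p-values adjusted by Benjamini-Hochberg over all genes tested, with calls under 0.05. The step was tested on simulated counts with a single dispersion for all genes and no pattern shared between libraries, so such patterns were not covered. CPM values are counts per 1000000 of the TMM-scaled library size. Shares within 7 gene pairs were compared by exact permutation tests over libraries. Alternatives were other scalings, no filter, a replicate block, leaving out each library, DESeq2 1.42.0, and limma 3.58.1 on log2 of the deposited FPKM plus a pseudocount of 1 or 0.1.

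Library totals were 5750097 to 9461600 counts. A limit of 3 counts corresponded to 0.317 to 0.522 CPM; it covers counting error alone, because reads without molecular identifiers need not be independent.

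The 33 genes, the other gene lists and the markers were chosen with earlier results of these data known. Values per library are given for genes called in any comparison and for the gene with the highest and the lowest mean FPKM in each role. They are also given for PSAL and PSBY, which differed most between libraries of the same genotype. Of each other list, up to 6 called genes with the smallest adjusted p against WT could be named. Promoter windows were read from the TAIR10.1 reference (RefSeq), from 250 bases before to 50 bases after the annotated gene start. Transcripts were compared with BLAST 2.17.0.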

Additional observations from a re-analysis of the deposited data

Results flagged for a closer look

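For 13 of the 33 genes (39.4%) the effect of hac1-2 and the effect of hac1-1 differed by the test of the difference itself, hac1-2 against hac1-1 (edgeR adjusted p under 0.05), and hac1-2 was the higher in each. Of all genes tested, 1.86% were called higher and 0.978% lower in this comparison. The log2 fold changes were 0.64 for PSAK, 0.61 for PSAH1, 0.52 for PSAH2, 0.52 for PSAN, 0.51 for PSAO and 0.46 for PSAG in photosystem I. They were 0.61 for PSBX, 0.53 for PSBR, 0.46 for PSBP1, 0.43 for PSBO1 and 0.42 for PSBW in photosystem II. PETE2, for plastocyanin, had 0.56 and FNR2, for ferredoxin-NADP reductase, had 0.45. Groups of 3 libraries were not tested for single outlying libraries.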

How the results depend on the processing

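No alternative reversed a called result, and the summed levels kept their direction in every alternative, summed FPKM, an alternative chosen after seeing the data, included. Of the 280 differences in paralogue shares under alternatives, 10 changed sign, none of them called and each with 1 library left out. The PSBO1 share in hac1-1 against WT (0.33 percentage points) was -0.97 without hac1-1 replicate 1, -0.16 without hac1-1 replicate 3 and -0.96 without WT replicate 2, and the other 7 changes lay between -0.25 and -0.03. Of the 2607 log2 fold changes of single genes, 77 changed sign, again none called, and the median for the mean of both mutants (-0.02) was 0.01 to 0.05 in 9 alternatives. Counts of called genes moved more. For hac1-2 against WT (4 higher), the count was 2 with DESeq2 size factors, 9 with library size only and 8 without the filter, and 0 to 6 when single libraries were left out. For hac1-1 against WT (5 lower), it was 9 without the filter, 2 on each FPKM scale (pseudocount 1, pseudocount 0.1, and mean FPKM of at least 1), and 3 to 10 when single libraries were left out, with 3 without hac1-1 replicate 3. For hac1-2 against hac1-1 (13 higher), it was 22 without the filter, 8 with a pseudocount of 1, 7 with a pseudocount of 0.1, 8 with a mean FPKM of at least 1, and 7 to 21 when single libraries were left out: 7 without hac1-1 replicate 3, hac1-2 replicate 2 or hac1-2 replicate 3, and 21 without WT replicate 2. For the mean of both mutants against WT (2 lower), it was 0 with library size only, with upper quartile factors and on each FPKM scale, and 0 to 2 when single libraries were left out. The cause was not tested.

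With the replicate number as a block, the counts were 12 higher in hac1-2 against WT, 10 lower in hac1-1 against WT, 24 higher in hac1-2 against hac1-1 and 2 lower for the mean of both. The labels do not say that the numbers pair the samples. Same-numbered libraries correlated at 0.01 to 0.14 in their deviations from the group means over all genes, and libraries with different numbers at -0.10 to 0.03. The same-numbered values were not above 0.1 in every pair, so the block was kept as an alternative. Whether the numbers mark a shared batch was not tested. Over the 33 genes alone, all 9 same-numbered pairs lay above 0.1 (0.14 to 0.81), as a hint from the data. With library size only, the split of calls over all genes moved to 57.8% lower in hac1-2 against WT, in place of 72.3%, and to 62.5% in place of 72.2% in hac1-1. Depth did not limit detection: each of the 33 genes stood at 14.2 CPM or more in every library, against a limit of at most 0.522 CPM for 3 counts.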

Other observations

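Fold changes were set beside the motifs in the promoter window. In hac1-2 against hac1-1, the median log2 fold change was 0.38 for the 18 genes with an I-box and 0.46 for the 15 without, and 0.43 for the 11 genes with a G-box and 0.45 for the 22 without. It was 0.38 for the 7 genes with CCAATC and 0.45 for the 26 without, and 0.48 for the 17 genes with TATAAA and 0.37 for the 16 without. These medians were not tested.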
